A study of Homo sapiens with 5 samples.

Results

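The genes of 41 growth factor ligands were followed in the RNA of 2 human pigment cell lines in which BPTF was silenced. The ligands were chosen by name, with earlier results of these data known. They were matched to the gene identifiers of the count files through the GENCODE 29 names. They comprise 41 of the 40263 genes listed in at least 1 line. The count files of both lines list 39 of them, while FGF10 and FGF19 are listed only in the files of 501Mel cells, with a count of 0 in both libraries. In total, 39 of the 41 genes had a nonzero count in at least 1 library.

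BPTF is the largest subunit of NURF, a chromatin remodelling complex, and the study asked how NURF acts with MITF, the transcription factor that governs the melanocyte lineage. 501Mel is a melanoma cell line grown in RPMI medium with foetal calf serum. Hermes 3A is an immortalised, non-tumoural melanocyte line grown in the same base medium and serum with TPA, cholera toxin, human stem cell factor and endothelin-1 added. Both lines were infected with lentiviral vectors expressing shBPTF, a short hairpin RNA against BPTF, and were selected with puromycin before RNA-seq of 2 libraries of 501Mel cells and 3 of Hermes 3A cells. All 5 libraries thus come from cells given shBPTF. The paper lists 2 shBPTF constructs, and the sample titles do not say which of them each library received. Whether the hairpin or the depth of the knockdown differed between the lines was not tested. The shControl counts were not analysed here, so that every comparison below is between the 2 lines after BPTF silencing. None is an effect of shBPTF. Each state is represented by 1 line, and the line, the tumour origin and the medium additions, 1 of which is itself the protein product of KITLG, cannot be told apart. The replicates are not stated to be separate cultures, and p-values measure the spread between these libraries, which may be technical. In RNA from whole cultures, fewer cells that express a gene and less RNA of it per cell cannot be told apart either.

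Growth factors are secreted or cell-surface proteins that bind receptors on the same or on neighbouring cells, most of them receptor tyrosine kinases, and so switch on the RAS-MAPK and PI3K pathways that control survival, division and migration. Melanocytes depend on such signals from surrounding keratinocytes and fibroblasts, of which FGF2, HGF, KIT ligand and endothelin are the classical examples, and melanoma cells are known for making growth factors of their own. FGF11, FGF12, FGF13 and FGF14 share the FGF fold but are FGF homologous factors, which stay inside the cell and bind voltage-gated sodium channels, so that the word secreted does not hold for these 4 of the 41 genes.

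The sequence just before the start of a gene is where many transcription factors bind. RefSeq (GRCh38.p14) windows of the 250 bases before a transcript start were given for 31 of the 41 genes, with 57 windows in all because several genes have more than 1 start. They were searched on both strands for the E-box CACGTG, to which MITF and MYC family proteins bind, for the M-box core TCATGTG, and for TGACTCA, the element of AP-1 factors, which TPA is known to activate. CACGTG stood in 3 of the 57 windows (5.26%), which belong to BDNF and FGF14, and in 6.34% of all 35116 windows. TCATGTG stood in 2 of the 57 windows (3.51%), 1 each of FGF1 and VEGFB, and in 2.52% of all windows. TGACTCA also stood in 2 of the 57, 1 each of EGF and FGF1, and in 4.20% of all windows. A match describes the letters in the window and is not a site of binding. The windows of 2 genes that differed between the lines are shown, 5′ to 3′ on the strand of the gene, with the matched motif in capitals. The EGF window (chr4:109912633-109912882, plus strand) holds TGAGTCA, the reverse complement of TGACTCA, beginning 17 bases before the start. The BDNF window (chr11:27720780-27721029, minus strand) precedes 1 of several BDNF starts, lies in an intron of the longest annotated BDNF transcript, and holds CACGTG beginning 42 bases before the start.
EGF: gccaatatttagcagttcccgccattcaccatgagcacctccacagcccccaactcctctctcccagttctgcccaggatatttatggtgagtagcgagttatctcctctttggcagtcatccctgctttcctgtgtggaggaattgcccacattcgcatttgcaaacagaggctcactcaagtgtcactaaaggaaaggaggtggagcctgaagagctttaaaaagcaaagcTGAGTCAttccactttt
BDNF: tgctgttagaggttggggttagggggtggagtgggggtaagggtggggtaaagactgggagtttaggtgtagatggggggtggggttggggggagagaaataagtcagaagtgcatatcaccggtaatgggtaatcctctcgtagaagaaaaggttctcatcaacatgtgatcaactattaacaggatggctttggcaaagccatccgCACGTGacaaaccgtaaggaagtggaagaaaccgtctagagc

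Library totals were between 30073071 and 43032311 counts, at which 3 counts correspond to between 0.0697 and 0.0998 CPM, that is counts per 1000000 counts of a library, a floor that covers counting error only. BPTF, the targeted gene, had 2832 and 2189 counts in 501Mel cells against 1906, 2110 and 1628 in Hermes 3A cells. It had 65.8 and 57.8 CPM against 45.8, 51.6 and 54.1 CPM, with an edgeR adjusted p of 0.211 between the lines, and without shControl counts these values do not check the knockdown. All 7 melanocyte lineage markers were detected in every library, with a summed level of 12718 and 19661 CPM in 501Mel cells, while the Hermes 3A libraries lay between 31651 and 32728 CPM. The 7 did not move together, since 4 were lower in 501Mel cells, DCT was higher with 45970 and 49226 counts against 307, 361 and 393, and 2 were not called, MITF among them (log2 fold change 0.17, edgeR adjusted p = 0.433). Fibroblast markers summed to 17.2 and 3.46 CPM in 501Mel cells, and the Hermes 3A libraries lay between 80.1 and 190 CPM, where 1 of the 7, COL1A2, had 2893, 7359 and 5631 counts. COL1A2 was the only 1 of the 6 tested that was called. The other 6 markers summed to 17.1 and 3.35 CPM against 10.6, 3.60 and 2.99 CPM, which overlapped, and the median log2 fold change of the list was 0.19. Of the keratinocyte markers KRT10 was detected, with 1405 and 1290 counts against 1975, 1765 and 1305, and was lower in 501Mel cells (log2 fold change -0.49, edgeR adjusted p = 0.0350), though not in 4 of the 5 fits that left out 1 library. KRT5, KRT1 and PECAM1 of endothelium were not listed, KRT14 had at most 1 count in a library, and PTPRC of leukocytes had at most 2. The endothelial markers summed to at most 0.612 CPM. The leukocyte list summed to 95.3 and 34.4 CPM in 501Mel cells through CD68 alone. Mitochondrial genes took 6.14% and 6.74% of the counts in 501Mel cells, and their share in Hermes 3A cells was between 2.75% and 3.26%. The part of the fibroblast signal, of CD68 or of the mitochondrial share in the differences below was not tested. Hermes 3A replicate 1 stood apart from the other 2 libraries of its line, with a chi-square per gene of at least 97.0 against 21.6 between replicates 2 and 3, and the 2 libraries of 501Mel cells differed by 74.8. Calls that were lost or gained when 1 library was left out are given below for each gene whose values are shown.

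Of the 41 genes, 31 had enough counts to be tested, and 20 of these (64.5%) differed between the lines at an edgeR adjusted p under 0.05, against 48.4% of all 17918 genes tested. In 501Mel cells 9 of the genes were higher, against a background of 24.3% of all genes tested, and 11 were lower, against 24.1%. Higher in 501Mel cells were FGF13, PDGFB, PDGFC, PDGFD, EGF, HBEGF, NRG2, NRG3 and ANGPT1. Lower in 501Mel cells were FGF5, FGF7, VEGFB, TGFA, BTC, NRG1, BDNF, NTF3, GDNF, MDK and GAS6. The remaining 11 tested genes did not pass the test, and 10 were not tested, FGF10 and FGF19 because they are listed for 1 line and the others because of their low counts. The CPM ranges of the lines did not overlap for 26 of the 31 tested genes (83.9%), against 69.9% of all genes tested. Shares set against all genes, here and below, describe lists that were chosen with earlier results of these data known.

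The differences were large and the replicates uneven. The median absolute log2 fold change was 2.30 over the 31 genes against 0.79 over all genes tested, and 17 of the 31 (54.8%) reached an absolute log2 fold change of 2, against 20.5% of all genes tested. Their median standard error was 0.592, against 0.290 over all genes tested. The 31 genes were not matched to all genes for count level in these comparisons. The median signed log2 fold change, 501Mel over Hermes 3A, was -0.72 over the 31 genes and 0.023 over all genes tested. Of the 20 genes called, 16 were called in each of the 5 fits that left out 1 library in which they were tested. The 4 others were PDGFC, EGF, BTC and HBEGF. PDGFB, called in the other fits, was not tested without 501Mel replicate 1. Together the 41 genes summed to 300.6 and 289.0 CPM in 501Mel cells against 437, 353 and 352 CPM in Hermes 3A cells.

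**Figure D1:**
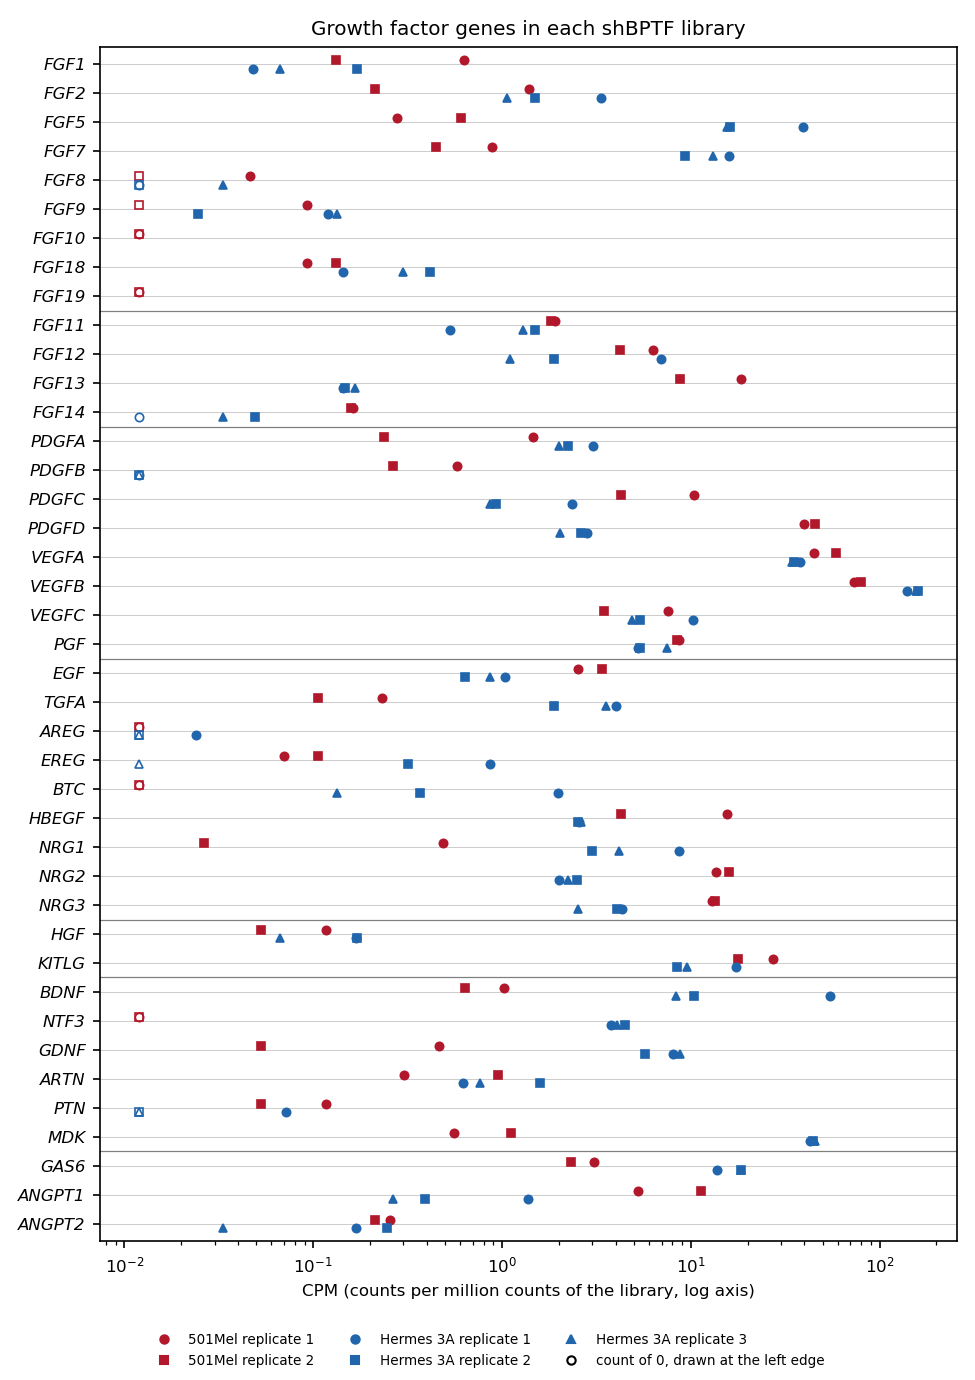
CPM of each of the 41 genes in each library on a log axis, with 501Mel libraries in red and Hermes 3A libraries in blue, replicates as symbols and families separated by lines; counts of 0 are open symbols at the left edge, and FGF10 and FGF19 are listed for 501Mel cells only. VEGFB lies highest in every library, while MDK, FGF5 and NTF3 separate the lines to the right in blue and PDGFD and FGF13 in red.

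Of the 9 secreted FGF genes 4 were tested and 5 were not. Among the 4 tested 2 were called, close to the share among all genes tested (48.4%). The 2 called genes, FGF5 and FGF7, were both higher in Hermes 3A cells. FGF5, a ligand of FGFR1 known for ending the growth phase of the hair cycle, had 12 and 23 counts in 501Mel cells against 1628, 660 and 470 in Hermes 3A cells. Its level was 0.443 CPM ± 0.232 (SD, n = 2) against 23.6 CPM ± 13.4 (SD, n = 3), a ratio of 53.3, with Hermes 3A replicate 1 at more than double the other libraries of its line. Its log2 fold change was -5.82 (SE 0.676, edgeR adjusted p = 0.000631), -5.22 without Hermes 3A replicate 1 and -6.50 without 501Mel replicate 2. FGF7, or keratinocyte growth factor, is made by mesenchymal cells and acts on epithelia through FGFR2b. It had 0.883 and 0.449 CPM in 501Mel cells against 15.9, 9.37 and 13.1 CPM in Hermes 3A cells, with no overlap (log2 fold change -4.33, SE 0.465, edgeR adjusted p = 0.000453). FGF7 has near-identical pseudogene copies in the genome, and its counts are uncertain to that extent. The part of the COL1A2 signal in these differences was not tested.

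FGF2, the basic FGF that supports melanocytes in culture, was low and uneven. It had 60 and 8 counts in 501Mel cells against 139, 61 and 32 in Hermes 3A cells, and the ranges in CPM overlapped. Its difference was -1.37 on the log2 scale (SE 0.841, edgeR adjusted p = 0.213) and became -3.27 without 501Mel replicate 1, with an edgeR adjusted p of 0.0476, and -0.61 without 501Mel replicate 2, with 0.570. NUDT6, a gene on the opposite strand, shares 11.9% of the FGF2 exons, and the strand setting of the counting is not given in the sources used here. FGF18 had between 4 and 17 counts and, among the fits that left out 1 library, was called without Hermes 3A replicate 1 (edgeR adjusted p = 0.0424, against 0.124 with all libraries). FGF1 had at most 27 counts, and FGF8 and FGF9 had at most 5.

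Of the FGF homologous factors, FGF13 was the gene with the largest fitted difference among the members with counts in both lines. FGF13 is best known as a partner of sodium channels and of microtubules in neurons. It had 798 and 333 counts in 501Mel cells against 6, 6 and 5 in Hermes 3A cells, or 18.5 and 8.80 CPM against 0.144, 0.147 and 0.166 CPM. This gave a log2 fold change of 6.4 (SE 0.461, edgeR adjusted p = 9.95e-05), and 5.77 without 501Mel replicate 1. FGF12 had 6.34 and 4.20 CPM in 501Mel cells against 6.94, 1.88 and 1.10 CPM, so that Hermes 3A replicate 1 lay above both 501Mel libraries and the other 2 below. It was not called with all libraries (edgeR adjusted p = 0.556), and it was called without Hermes 3A replicate 1, with a log2 fold change of 1.76 and an edgeR adjusted p of 0.0138. FGF11 had 82 and 69 counts against 22, 61 and 39 and was not called (edgeR adjusted p = 0.268). A processed transcript on the same strand covers 75.0% of the FGF11 exons. FGF14 had at most 7 counts.

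All 8 genes of the PDGF and VEGF ligands were tested. Of these 8 genes 4 were called, close to the share among all genes tested (48.4%). In 501Mel cells 3 of the 4 PDGF genes were higher and VEGFB was lower, while PDGFA, VEGFA, VEGFC and PGF were not called. The call of PDGFC did not hold in each fit that left out 1 library, as given below. PDGFD, whose product is activated by proteolysis and binds PDGF receptor beta, differed evenly across the libraries. It had 1706 and 1730 counts in 501Mel cells against 117, 107 and 61 in Hermes 3A cells. The level of PDGFD was 42.7 CPM ± 4.28 (SD, n = 2) against 2.49 CPM ± 0.407 (SD, n = 3), a ratio of 17.2 (log2 fold change 4.03, SE 0.233, edgeR adjusted p = 4.38e-05), and the log2 fold change stayed between 3.86 and 4.14 when any 1 library was left out. The gene lies on chromosome 11 of GRCh38, from 103907186 to 104164379 on the minus strand.

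PDGFC, the other PDGF with a domain that must be cleaved off, had 10.3 and 4.25 CPM in 501Mel cells against 2.35, 0.930 and 0.865 CPM in Hermes 3A cells. The ranges did not overlap, but each line had 1 library at more than double the others. For PDGFC the log2 fold change of 2.30 (SE 0.592, edgeR adjusted p = 0.0159) was 1.54 without 501Mel replicate 1, where PDGFC was not called (edgeR adjusted p = 0.124), and 2.96 without Hermes 3A replicate 1. It was also not called without Hermes 3A replicate 2 or 3, with edgeR adjusted p of 0.0529 and 0.0571. PDGFB, the ligand of both PDGF receptors, had 25 and 10 counts in 501Mel cells and 0 in all 3 Hermes 3A libraries. It was called (edgeR adjusted p = 0.00665). Against the floor of 3 counts per library its mean CPM was at least 5.17-fold higher in 501Mel cells, or at least 3.23-fold with 501Mel replicate 1 left out. PDGFA had 63 and 9 counts against 127, 91 and 60 and was not called (log2 fold change -1.58, edgeR adjusted p = 0.105). It was called without 501Mel replicate 1, where the log2 fold change was -3.40 and the edgeR adjusted p was 0.0123, and it was -0.83 without 501Mel replicate 2, with an edgeR adjusted p of 0.265.

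VEGFB, a ligand of VEGFR1 known from heart and muscle, was the most abundant growth factor gene of both lines. It had 73.1 and 79.9 CPM in 501Mel cells against 141, 160 and 156 CPM in Hermes 3A cells, and the libraries of each line lay close together. Its mean was 76.5 CPM ± 4.81 (SD, n = 2) against 152 CPM ± 10.2 (SD, n = 3), and the log2 fold change of -1.05 (SE 0.133, edgeR adjusted p = 0.000885) ranged from -1.15 to -0.99 when any 1 library was left out. VEGFB alone made up 26.0% of the summed CPM of the 41 genes in 501Mel cells against 39.9% in Hermes 3A cells. The gene lies on chromosome 11 of GRCh38, from 64234538 to 64238793, and its window holds the M-box core given above, beginning 49 bases before the RefSeq start.

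VEGFA, the main inducer of blood vessel growth, had 45.0 and 58.5 CPM in 501Mel cells against 38.1, 35.4 and 34.3 CPM in Hermes 3A cells. The ranges did not overlap, but the difference did not pass the test (log2 fold change 0.46, SE 0.177, edgeR adjusted p = 0.0654). VEGFA was called without 501Mel replicate 1 (edgeR adjusted p = 0.0410) and without Hermes 3A replicate 1 (edgeR adjusted p = 0.0482), and also with library totals as the only scaling. VEGFC, the ligand of lymphatic vessels, had 7.53 and 3.46 CPM against 10.2, 5.41 and 4.89 CPM, which overlapped (edgeR adjusted p = 0.524). PGF, placental growth factor, had 8.64 and 8.48 CPM against 5.23, 5.38 and 7.45 CPM and was not called (edgeR adjusted p = 0.225).

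The EGF family was divided between the lines, with EGF, HBEGF, NRG2 and NRG3 higher and TGFA, BTC and NRG1 lower in 501Mel cells, EREG not called, and AREG not tested. Of the 8 tested, 7 were called (87.5%, against 48.4% of all genes tested). Not all of these calls held when 1 library was left out, as given below. The neuregulins, which are ligands of EGF family receptors, went in both directions. NRG2 had 582 and 602 counts in 501Mel cells against 83, 102 and 67 in Hermes 3A cells, or 14.7 CPM ± 1.68 (SD, n = 2) against 2.24 CPM ± 0.252 (SD, n = 3). NRG3 had 13.0 and 13.4 CPM against 4.30, 4.09 and 2.53 CPM. NRG1 had 21 and 1 counts in 501Mel cells against 362, 123 and 125 in Hermes 3A cells. The ranges of the lines overlapped for none of these 3 genes. The log2 fold change was 2.65 for NRG2 (SE 0.264, edgeR adjusted p = 0.000335), 1.79 for NRG3 (SE 0.314, edgeR adjusted p = 0.00343) and -4.41 for NRG1 (SE 0.998, edgeR adjusted p = 0.00965). The size of the NRG1 difference depended on 1 library, since its log2 fold change was -7.55 without 501Mel replicate 1, -3.54 without 501Mel replicate 2 and -3.81 without Hermes 3A replicate 1.

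Of the ligands of the EGF receptor itself, TGFA was higher in Hermes 3A cells, with 167, 77 and 107 counts against 10 and 4 in 501Mel cells. Its log2 fold change was -4.26 (SE 0.631, edgeR adjusted p = 0.00171), and -4.92 without 501Mel replicate 1. EGF had 109 and 128 counts in 501Mel cells against 43, 26 and 26 in Hermes 3A cells. The ranges of EGF did not overlap (log2 fold change 1.73, SE 0.411, edgeR adjusted p = 0.0116), and it was not called without 501Mel replicate 2 (edgeR adjusted p = 0.0708) or without Hermes 3A replicate 2 (edgeR adjusted p = 0.0505). HBEGF, a membrane-anchored ligand released by ADAM proteases, had 671 and 161 counts in 501Mel cells against 107, 103 and 79 in Hermes 3A cells. Here 501Mel replicate 1 carried the difference. The log2 fold change of 1.87 (SE 0.509, edgeR adjusted p = 0.0194) was 0.66 without that library, where it was not called (edgeR adjusted p = 0.237), and 2.51 without 501Mel replicate 2. HBEGF was also not called without Hermes 3A replicate 2 (edgeR adjusted p = 0.0600) or replicate 3 (edgeR adjusted p = 0.0603).

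BTC, or betacellulin, had 0 counts in both 501Mel libraries and 82, 15 and 4 in Hermes 3A cells, so that most of its counts came from Hermes 3A replicate 1. Its mean CPM was at least 11-fold higher in Hermes 3A cells against the floor of 3 counts per library (edgeR adjusted p = 0.0263). With Hermes 3A replicate 1 left out that mean was at least 3.36-fold higher. BTC was not called without 501Mel replicate 1 or replicate 2 and was not tested without Hermes 3A replicate 1 or 2. EREG had 3 and 4 counts against 36, 13 and 0, and, among the fits that left out 1 library, was called without Hermes 3A replicate 3 (edgeR adjusted p = 0.0312, against 0.191 with all libraries). AREG had 1 count in all 5 libraries together and has a near-identical copy in the hg19 build.

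**Figure D2:**
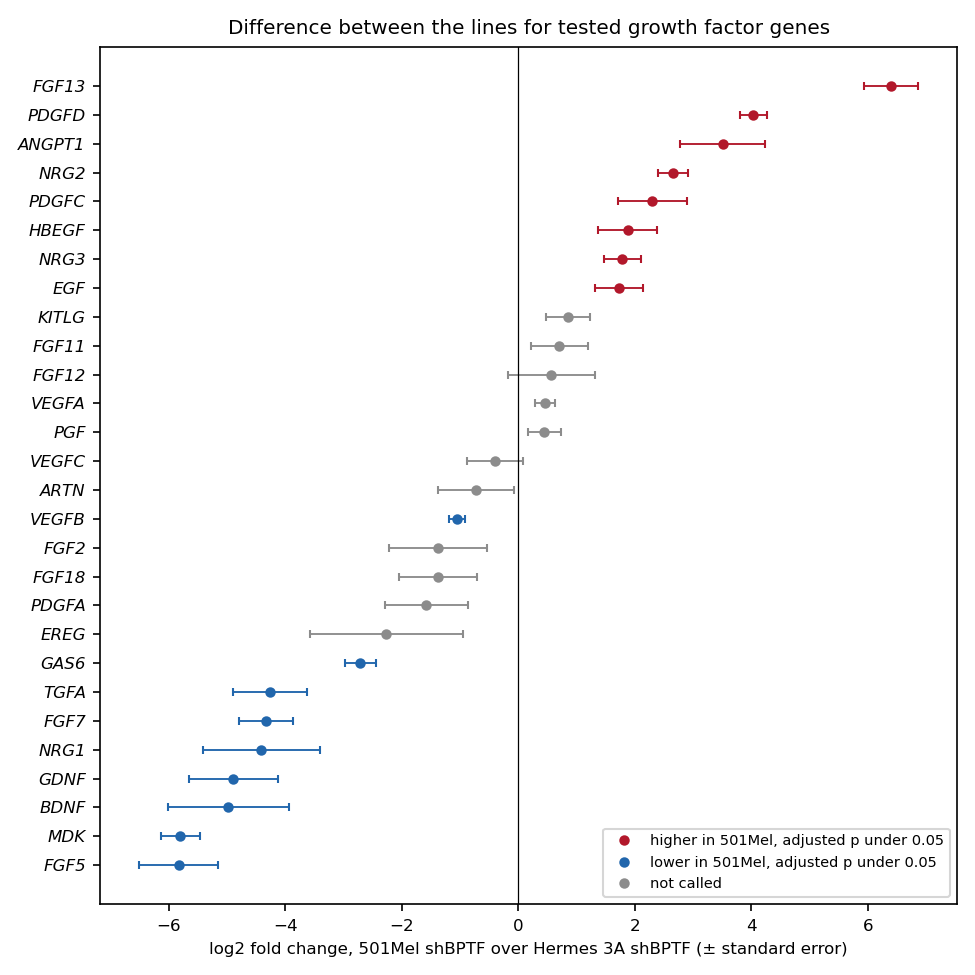
log2 fold change of 28 of the 31 tested genes, 501Mel shBPTF over Hermes 3A shBPTF, with bars of 1 standard error. Each standard error was computed from the log2 fold change and the F statistic of the edgeR test. PDGFB, BTC and NTF3 are left out because 1 line had 0 counts. FGF13 at 6.4 and PDGFD at 4.03 lie at the top, MDK at -5.80 and FGF5 at -5.82 at the bottom, and VEGFB combines a small difference with a short bar.

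KITLG encodes stem cell factor, the ligand of KIT and a survival factor of melanocytes that was also added to the medium of Hermes 3A cells. KITLG had 1177 and 673 counts in 501Mel cells against 721, 347 and 287 in Hermes 3A cells, or 27.4 and 17.8 CPM against 17.3, 8.49 and 9.54 CPM. The ranges came close without overlap, and the difference did not pass the test (log2 fold change 0.85, SE 0.372, edgeR adjusted p = 0.0957). Without Hermes 3A replicate 1 it was called, with a log2 fold change of 1.27 and an edgeR adjusted p of 0.00844. HGF, the ligand of MET, had between 2 and 7 counts in each library and was not tested.

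Of the 6 neurotrophic ligands 5 were tested. BDNF, NTF3, GDNF and MDK were lower in 501Mel cells, none was higher, ARTN was not called and PTN was not tested. The share called was 80.0%, against 48.4% of all genes tested in either direction and 24.1% lower in 501Mel cells. NRTN, another GDNF family ligand outside the 41 genes, was higher in 501Mel cells, with values given with the other pathway genes. MDK, or midkine, a heparin-binding factor of developing nerve and of tumours, was the second most abundant growth factor gene per length in Hermes 3A cells. It had 24 and 42 counts in 501Mel cells against 1776, 1822 and 1372 in Hermes 3A cells, or 0.834 CPM ± 0.390 (SD, n = 2) against 44.3 CPM ± 1.52 (SD, n = 3), a ratio of 53.1. Its log2 fold change was -5.80 (SE 0.337, edgeR adjusted p = 4.51e-05), and -6.39 without 501Mel replicate 2. MDK lies on chromosome 11 of GRCh38, from 46380756 to 46383837. PTN, the only other member of the midkine family, had at most 5 counts in a library of either line.

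NTF3, or neurotrophin 3, is the ligand of NTRK3. It had 0 counts in both 501Mel libraries, which allows at most 0.0697 and 0.0792 CPM. In Hermes 3A cells it had 158, 183 and 122 counts, or 4.11 CPM ± 0.345 (SD, n = 3). Its mean CPM was at least 55.2-fold higher in Hermes 3A cells against the floor of 3 counts per library (edgeR adjusted p = 0.000226). BDNF, the ligand of NTRK2, had 44 and 24 counts in 501Mel cells against 2273, 426 and 251 in Hermes 3A cells. The ranges did not overlap, although Hermes 3A replicate 1 held 54.6 CPM against 10.4 and 8.35 CPM in replicates 2 and 3. The log2 fold change was -4.98 (SE 1.04, edgeR adjusted p = 0.00683) and was -3.55 without Hermes 3A replicate 1, where the edgeR adjusted p was 0.00085. The antisense gene BDNF-AS shares 9.06% of the BDNF exons and had between 17 and 102 counts.

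GDNF, which signals through GFRA1 and RET, had 20 and 2 counts in 501Mel cells against 337, 235 and 263 in Hermes 3A cells, with no overlap (log2 fold change -4.89, SE 0.762, edgeR adjusted p = 0.00211). Its log2 fold change was -7.13 without 501Mel replicate 1 and -4.10 without 501Mel replicate 2. The antisense gene GDNF-AS1 shares 12.3% of the GDNF exons and had 2 and 1 counts in 501Mel cells against 99, 194 and 76 in Hermes 3A cells, and reads of the pair cannot be told apart where the exons overlap if strand was not used. ARTN, another GDNF family ligand, had 13 and 36 counts against 26, 65 and 23 (edgeR adjusted p = 0.394).

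GAS6 and ANGPT1 went in opposite directions. GAS6, the ligand of the receptors TYRO3, AXL and MERTK, had 3.07 and 2.32 CPM in 501Mel cells against 13.8, 18.5 and 18.4 CPM in Hermes 3A cells (log2 fold change -2.71, SE 0.273, edgeR adjusted p = 0.000354). The libraries of each line lay together, and the log2 fold change ranged from -2.92 to -2.55 when any 1 library was left out. The antisense gene GAS6-AS1 shares 7.01% of the GAS6 exons and had 171 and 98 counts in 501Mel cells against 3, 41 and 44. ANGPT1, the activating ligand of the endothelial receptor TEK, had 226 and 430 counts in 501Mel cells against 57, 16 and 8 in Hermes 3A cells. ANGPT1 was higher in both 501Mel libraries (log2 fold change 3.51, SE 0.729, edgeR adjusted p = 0.00676), and its log2 fold change was 2.82 without 501Mel replicate 2 and 4.59 without Hermes 3A replicate 1. ANGPT2 had at most 11 counts.

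Levels can be compared between genes only per length, here as CPM per kb of annotated exon. In 501Mel cells VEGFB had 49.5 CPM per kb ± 3.11 (SD, n = 2), followed by PDGFD with 10.0 ± 1.00 and KITLG with 3.64 CPM per kb. Each of these first 2 stood above the next by more than the larger SD, whereas KITLG, VEGFA (3.59), HBEGF (3.29) and NRG2 (3.26 CPM per kb) did not differ beyond their spread. In Hermes 3A cells VEGFB had 98.4 CPM per kb ± 6.57 (SD, n = 3), followed by MDK with 20.2 ± 0.690 and FGF5 with 3.94 CPM per kb. FGF5, BDNF (3.16), VEGFC (2.83), GAS6 (2.82) and VEGFA (2.49 CPM per kb) came next in an order that did not exceed their spread. At 1 CPM per kb or more 501Mel cells had 11 of the 41 genes and Hermes 3A cells had 12. The order rests on the length used, since VEGFA has long annotated exons. With the median transcript length in place of all annotated exons VEGFA reached 47.1 CPM per kb in 501Mel cells against 32.7 in Hermes 3A cells, and VEGFB 93.2 and 185 CPM per kb.

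**Figure D3:**
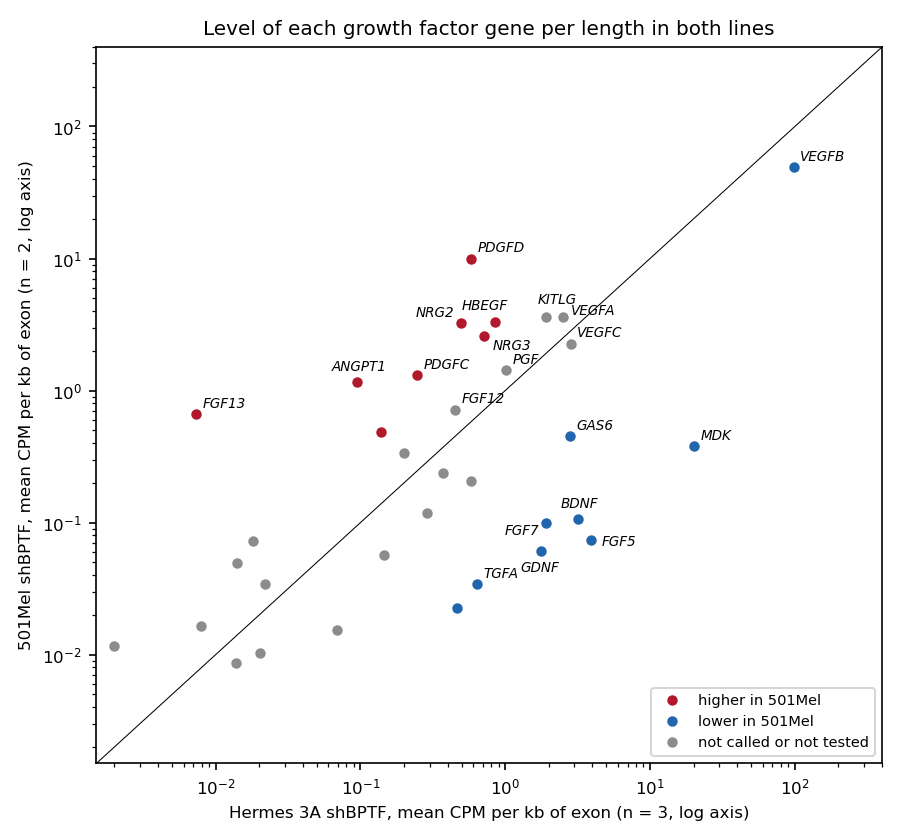
Mean CPM per kb of annotated exon in Hermes 3A (x axis, n = 3) and 501Mel (y axis, n = 2) shBPTF cells on log axes, for the genes with counts in both lines; the line marks equal levels. VEGFB lies at the upper end of both lines, PDGFD stands above the diagonal at 10.0 CPM per kb in 501Mel cells, and MDK stands below it at 20.2 CPM per kb in Hermes 3A cells.

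The spread between replicates was wider for the growth factor genes than for genes at large, in a comparison that was not matched for count level. Among genes with at least 50 counts summed over a line, the highest library had at least 3 times the CPM of the lowest for 3 of 21 growth factor genes in 501Mel cells (14.3%, against 3.83% of all genes) and for 5 of 27 in Hermes 3A cells (18.5%, against 7.58%). In Hermes 3A cells 17 of the 27 were highest in replicate 1 (63.0%, against 35.3% of all genes). In 501Mel cells 13 of 21 were highest in replicate 1 (61.9%, against 55.2%). The genes that reached 3 times included some at low counts, such as FGF2 (60 and 8) and PDGFA (63 and 9) in 501Mel cells and BTC (82, 15 and 4) in Hermes 3A cells. They also included HBEGF in 501Mel cells and BDNF in Hermes 3A cells, at higher counts. These shares are descriptions, and their cause was not tested.

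The receptors of these ligands were read from the same fit. Of 38 receptor and co-receptor genes, 31 were tested, of which 5 were higher and 6 were lower in 501Mel cells and 20 were not called. The share called was 35.5%, against 48.4% of all genes tested, and 7 of the 11 were called in each fit that left out 1 library. KIT and MET were abundant in both lines and were not called. KIT had 398 and 389 CPM in 501Mel cells against 490, 389 and 479 CPM (log2 fold change -0.27, SE 0.176, edgeR adjusted p = 0.237). MET had 451 and 807 CPM against 631, 604 and 622 CPM (log2 fold change -0.038, SE 0.255, edgeR adjusted p = 0.914), and the sign of that value turned with library totals as the only scaling (0.024).

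Of the 4 EGF family receptors, EGFR and ERBB2 were lower and ERBB4 was higher in 501Mel cells (75.0%, against 48.4% of all genes tested). EGFR, the receptor of EGF, TGFA, HBEGF and BTC, had 5 and 1 counts in 501Mel cells against 255, 197 and 192 in Hermes 3A cells (log2 fold change -6.31, SE 0.612, edgeR adjusted p = 0.000299), and -7.66 without 501Mel replicate 1. ERBB2, the shared partner without a ligand of its own, had 7.34 and 6.42 CPM against 112, 117 and 121 CPM (log2 fold change -4.15, SE 0.159, edgeR adjusted p = 1.2e-05). ERBB4 was at a low level, with 57 and 36 counts against 15, 11 and 9 (log2 fold change 1.8, edgeR adjusted p = 0.0133), and was not called without 501Mel replicate 1 (edgeR adjusted p = 0.101) or without Hermes 3A replicate 2 (edgeR adjusted p = 0.0523). Neither line was even for ERBB3, a neuregulin receptor of melanocytes, with 3874 and 177 counts in 501Mel cells against 1756, 7976 and 6081 in Hermes 3A cells. ERBB3 was not called (log2 fold change -1.68, SE 1.10, edgeR adjusted p = 0.241), except without 501Mel replicate 1 (log2 fold change -5.01, edgeR adjusted p = 0.0152). ERBB2 and ERBB4 were named after their values were seen, as were FGFR2, NGFR, PTPRZ1, PDGFRB and TIE1 below.

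Of the FGF receptors, FGFR1 had 67.8 and 76.9 CPM in 501Mel cells against 95.0, 107 and 99.9 CPM, a small decrease (log2 fold change -0.54, SE 0.134, edgeR adjusted p = 0.0144) that was not called without 501Mel replicate 1 (edgeR adjusted p = 0.0816). FGFR2 was called higher in 501Mel cells (log2 fold change 5.29, edgeR adjusted p = 0.0127), but with 405 counts in replicate 1 and 14 in replicate 2, and without replicate 1 it was not called (log2 fold change 1.59, edgeR adjusted p = 0.278). PDGFRA had 111 and 36 counts against 40, 37 and 23 (edgeR adjusted p = 0.163). PDGFRB, the receptor of PDGFB and PDGFD and also 1 of the fibroblast markers, had at most 14 counts in a library of either line. KDR, or VEGF receptor 2, had 17 and 14 counts in 501Mel cells against 518, 353 and 304 in Hermes 3A cells (log2 fold change -4.82, SE 0.390, edgeR adjusted p = 0.000146).

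Among the receptors of the neurotrophic ligands, GFRA1, the GDNF co-receptor, had 19 and 5 counts in 501Mel cells against 1747, 1244 and 942 in Hermes 3A cells (log2 fold change -6.94, SE 0.491, edgeR adjusted p = 9.04e-05), and -8.06 without 501Mel replicate 1. RET, the kinase that GFRA1 presents GDNF to, had at most 14 counts in any library. NGFR, the receptor that all neurotrophins share, was also lower in 501Mel cells, with 22 and 4 counts against 428, 307 and 186 (log2 fold change -4.74, SE 0.672, edgeR adjusted p = 0.00143), -6.26 without 501Mel replicate 1 and -4.06 without replicate 2. NTRK2, the kinase receptor of BDNF, had 71 and 9 counts against 33, 26 and 9 and was not called (edgeR adjusted p = 0.543). PTPRZ1, a phosphatase receptor of midkine and pleiotrophin, was higher in 501Mel cells, with 113 and 59.4 CPM against 19.8, 17.9 and 25.4 CPM (log2 fold change 1.96, SE 0.282, edgeR adjusted p = 0.00151).

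Of the GAS6 receptors, MERTK was higher in 501Mel cells, with 38.3 and 30.2 CPM against 13.2, 8.47 and 6.72 CPM (log2 fold change 1.78, SE 0.317, edgeR adjusted p = 0.00360). AXL, a receptor linked to the invasive state of melanoma, had 131 and 7 counts against 42, 18 and 12 and was not called (edgeR adjusted p = 0.307). Without 501Mel replicate 1 the sign of its log2 fold change turned (-1.80, edgeR adjusted p = 0.192), and without replicate 2 it was called (2.18, edgeR adjusted p = 0.0418). TEK, the receptor of ANGPT1, had 1 count in all 5 libraries together, and TIE1 was called higher in 501Mel cells with at most 16 counts, but not without 501Mel replicate 1 (edgeR adjusted p = 0.0549) or replicate 2 (edgeR adjusted p = 0.0957).

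**Figure D4:**
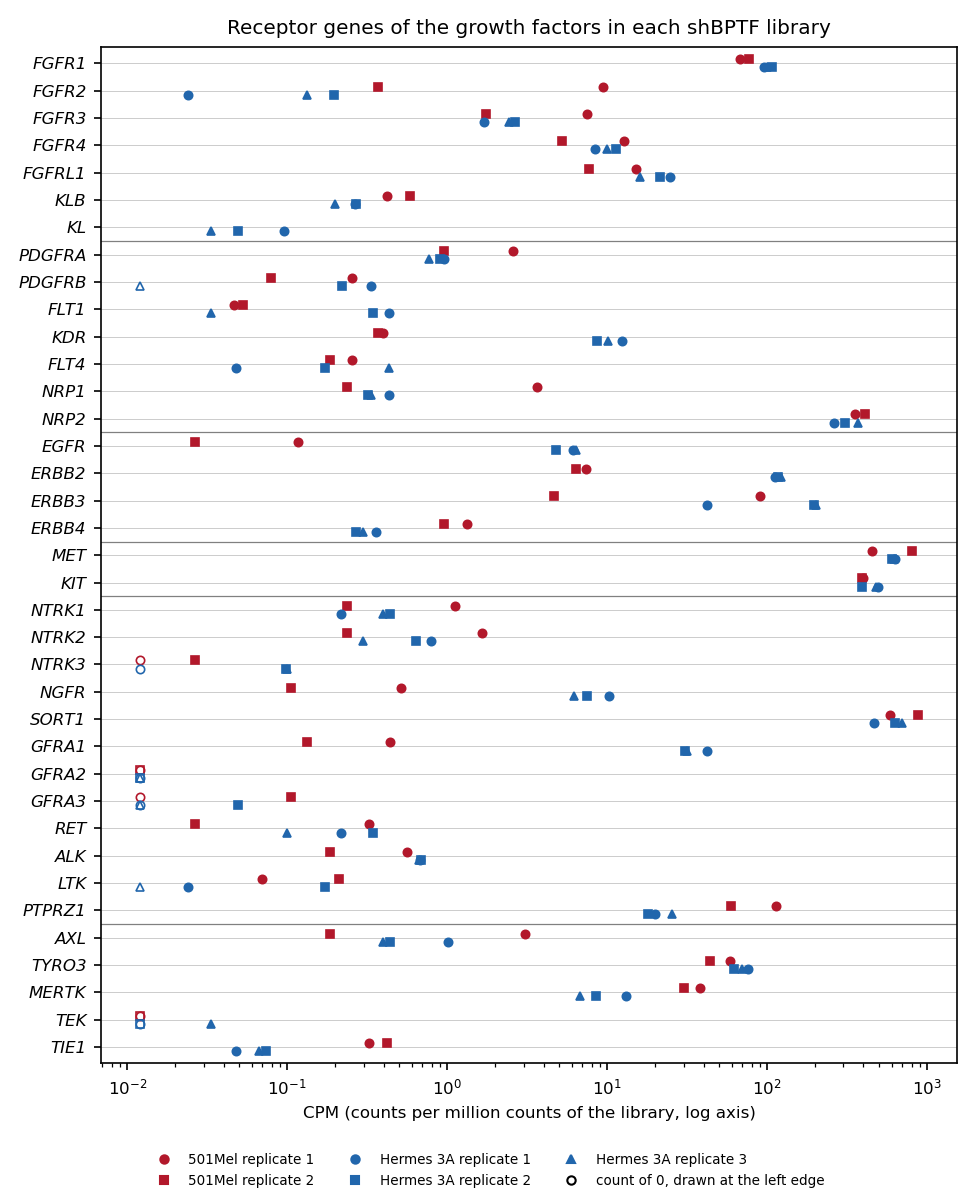
CPM of the receptor genes in each library on a log axis, with colours and symbols as in the plot of the ligands; open symbols at the left edge are counts of 0, and KL is listed for Hermes 3A cells only. MET and KIT lie between 389 and 807 CPM in all libraries, EGFR, ERBB2, KDR, NGFR and GFRA1 are lower in 501Mel cells, and the red symbols of ERBB3, FGFR2 and AXL lie far apart.

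Beyond the receptors, 4 further lists of pathway genes were counted. Of 18 other ligands of the same families 7 were tested. NRTN and VEGFD were higher and FGF17 and PROS1 were lower in 501Mel cells (57.1% called, against 48.4% of all genes tested). NRTN, or neurturin, a GDNF family ligand, had 425 and 247 counts in 501Mel cells against 11, 41 and 27 (log2 fold change 3.46, SE 0.542, edgeR adjusted p = 0.00217). The log2 fold change was 1.65 for VEGFD, -3.52 for FGF17 and -1.33 for PROS1, which were named after their values were seen. VEGFD was not called in 4 of the 5 fits that left out 1 library (edgeR adjusted p up to 0.219), and FGF17 was not called without either 501Mel library (edgeR adjusted p up to 0.0555). Of 14 genes of ligand processing and shedding 11 were tested. In 501Mel cells 1 was higher (ADAM17) and 5 were lower (54.5% called, against 48.4% of all genes tested). ADAM12, a protease that releases EGF family ligands, had 4.67 and 10.8 CPM against 62.3, 60.3 and 61.6 CPM (log2 fold change -3.05, SE 0.365, edgeR adjusted p = 0.000723), and -3.81 without 501Mel replicate 2. FURIN, the convertase that matures BDNF, VEGFC and PDGF precursors, had 93.3 and 76.5 CPM against 435, 396 and 384 CPM (log2 fold change -2.32, edgeR adjusted p = 0.000117), and was named after its values were seen together with ADAM17. ADAM17 was not called without 501Mel replicate 2 or Hermes 3A replicate 2 (edgeR adjusted p up to 0.0754).

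Of 15 genes of heparan sulfate proteoglycans and FGF binding proteins 14 were tested. In 501Mel cells 5 were higher and 5 were lower (71.4%, against 48.4% of all genes tested), but only 3 of the 10 were called in each fit that left out 1 library. GPC3, named after its values were seen, had 623 and 27 counts against 38, 30 and 33, and its log2 fold change of 2.98 (edgeR adjusted p = 0.0406) was -0.42 without 501Mel replicate 1 (edgeR adjusted p = 0.625), 1 of 4 such fits in which it was not called. FGFBP2, annotated as an FGF binding protein, had 469 and 2393 counts in 501Mel cells against 12, 11 and 11 (log2 fold change 6.86, SE 0.777, edgeR adjusted p = 0.000571), 5.05 without replicate 2 and 7.62 without replicate 1. Of 14 feedback inhibitors and targets of receptor signalling 13 were tested. ERRFI1, ETV1, ETV5 and SPRED2 were higher and DUSP4 was lower in 501Mel cells (38.5% called, against 48.4% of all genes tested). ERRFI1, an inhibitor of EGF family receptors, had 1310 and 758 counts against 205, 219 and 162 (log2 fold change 2.21, SE 0.242, edgeR adjusted p = 0.000489). ETV1, ETV5, SPRED2 and DUSP4 were named after their values were seen. Of these, ETV5 was called in each fit that left out 1 library. ETV1 was not called in 4 of the 5 (edgeR adjusted p up to 0.0854), SPRED2 in 3 (up to 0.0940), and DUSP4 in the 2 without a 501Mel library (up to 0.0605). DUSP6, often read as a measure of ERK activity and also named after its values were seen, had 122 and 60.6 CPM against 119, 73.7 and 71.0 CPM and was not called (edgeR adjusted p = 0.968). Over all 99 pathway genes outside the 41 ligands, 76 were tested, 17 were higher and 19 were lower in 501Mel cells (47.4%, against 48.4% of all genes tested). Of these 36 genes, 19 were called in each fit that left out 1 library.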

How the data were processed

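RNA was measured by RNA-seq in shBPTF cells, 2 libraries of 501Mel and 3 of Hermes 3A. Per the labels, ribosomal RNA was depleted and the libraries were treated with a duplex-specific nuclease, which removes abundant cDNA and so can compress differences in level between genes. The authors deposited raw read counts per gene, unnormalized whole numbers named by Ensembl identifier. The submitters' processing notes name CASAVA 1.8, TopHat 1.4.1, Bowtie 0.12.7 and the hg19 build. The counting program, its strand setting and the annotation release are not given in the sources used here. The 2 lines' files list different gene sets (37259 and 34033), so the 31029 genes of both were fitted, with the totals of the whole files as library sizes. Genes outside that set held between 0.0938% and 0.712% of a library.

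Samples were grouped by their labels. The lines were compared with the quasi-likelihood test of edgeR 4.0.16 (TMM, filterByExpr, cell line as the only term) in R 4.3.3, with Benjamini-Hochberg adjustment over all 17918 genes tested, and called at an adjusted p of 0.05. The fit was also run on simulated counts with a known set of changed genes, as a check of the code. That run does not measure the error rate in these data. log2 fold changes are 501Mel over Hermes 3A. Standard errors (SE) are not an output of the edgeR test. Each is the absolute log2 fold change divided by the square root of the F statistic of that test. Names, coordinates and exon lengths are those of GENCODE 29 on GRCh38, another build than hg19. The members and the pathway lists were chosen with earlier results of these data known. Members with at least 50 counts in every library of a line (25 of 41) are given with every library, called ones with the test, and others by range. Of each pathway list, fixed receptors and the called gene with the largest difference are named. The alternatives were RLE factors, library totals, DESeq2 1.42.0, limma-voom (limma 3.58.1), no filter, at least 10 counts in every library, a replicate block, each library left out and other gene lengths. Values of the paper's shControl libraries were not used.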

Additional observations from a re-analysis of the deposited data

How the results depend on the processing

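All 20 genes called stayed called with RLE factors, library totals, DESeq2, limma-voom and no filter. They also stayed called when genes listed for 1 line were taken as 0 in the other, an alternative chosen after seeing the data. VEGFA was added with library totals and PDGFA with limma-voom. Requiring at least 10 counts in every library left 12 of the 20, with 6 lower in 501Mel cells instead of 11, because 8 genes at low counts in 1 line could no longer be tested. Leaving out 1 library gave between 2871 and 4595 genes higher in 501Mel cells over all genes (4348 with all libraries), between 6 and 12 growth factor genes higher and between 10 and 12 lower, and between 8 and 18 pathway genes higher instead of 17 (8 without 501Mel replicate 1, 11 without Hermes 3A replicate 2). With the replicate number as a block, 23 growth factor genes were called instead of 20, EREG, FGF2 and PDGFA being added, and NTRK2 turned to -0.10. Only the number is shared between the lines, and the deviations of same-numbered libraries correlated at 0.102 and 0.137. With median transcript lengths 18 genes (501Mel) and 21 genes (Hermes 3A) reached 1 CPM per kb, instead of 11 and 12.

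Over all alternatives, 359 values of single growth factor genes kept their direction and their side of the threshold. Of the other values, 10 were no longer called, 13 were newly called and 2 changed sign. Fits in which a gene could not be tested are not among these values, also where the gene was called with all libraries. No called growth factor gene changed sign. Among the pathway genes called, GPC3 turned to -0.42 without 501Mel replicate 1. The other genes named that changed sign were not called with all libraries, and their log2 fold changes without 1 library ranged from -1.05 to 0.037 for VEGFC (0.030 without 501Mel replicate 2, 0.037 without Hermes 3A replicate 1), from -1.31 to 0.30 for PDGFRB (0.36 with limma-voom), from -0.55 to 0.32 for MET (0.024 with library totals), from -1.34 to 1.4 for NTRK2, from -2.98 to 0.45 for RET, from -0.60 to 0.38 for DUSP6, from -0.012 to 0.30 for MITF and from -1.80 to 2.18 for AXL. The cause was not tested. Another scaling moved the median of all genes from 0.023 to 0.087 with library totals and to 0.0094 with RLE factors. Genes under 3 counts in a library are not detectable at this depth, which does not show that they are absent.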
